A study of Mus musculus with 4 samples.

Results

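The genes of mitochondrial ribosomal proteins were taken as those whose name in the array design begins with Mrpl or Mrps followed by a digit. The array carried 75 of them. The 73 with a probe well above background on at least 1 of the 4 arrays are described here, out of 17668 of 31703 genes that met the same condition. Large-subunit names (Mrpl) made up 44 of the 73 and small-subunit names (Mrps) 29. Mrpl21 and Mrpl35 were not well above background on any array. Detection on all 4 arrays held for 69 members. Mrpl13, Mrpl47 and Mrps9 were not well above background on the wild-type fetal liver array, and Mrpl1 was detected on the Ezh2-null fetal liver array alone.

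RNA came from mouse erythrocyte/megakaryocyte progenitors, the shared precursors of red cells and of the megakaryocytes that shed platelets, all on a C57BL/6 background. The 4 groups were Ezh2-null and wild-type progenitors of E14.5 fetal liver, and Ezh2-null and wild-type progenitors of adult bone marrow, with 1 array each. Ezh2 encodes the histone methyltransferase of Polycomb repressive complex 2. The labels do not describe the null allele, any Cre line, the isolation of the cells or the number of animals behind each RNA, and with 1 array per group no difference below has a replicate check.

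Mitochondrial ribosomes translate the small set of proteins encoded in mitochondrial DNA, all of them subunits of the oxidative phosphorylation complexes. Their RNA is transcribed inside the organelle, while every protein subunit is encoded in the nucleus and imported. Red cell precursors depend on mitochondria for haem synthesis and later discard them.

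Each level is a spot intensity after the arrays were brought to the same 75th percentile. Between 39.0% and 46.4% of 39418 probes were well above background per array, the lowest share being that of wild-type fetal liver. The Ezh2 probe was brighter on both arrays labelled Ezh2-null, at 194 against 33.5 in wild-type fetal liver and 70.02 against 35.4 in wild-type bone marrow. The deleted part of the gene is not described, so this probe does not check the genotype, and every direction below rests on the labels. Xist, the RNA of the inactive X chromosome, was well above background on the Ezh2-null fetal liver array alone (743). Between 8 and 10 of 10 progenitor markers were well above background per array, with Gata1, Klf1 and Epor detected on all 4. Itga2b was detected on the Ezh2-null fetal liver array alone, and Gata2 on every array but wild-type fetal liver. Kit read 362 on the Ezh2-null fetal liver array, against 96.0 in wild-type fetal liver, and Epor read 706 against 1655. Of 8 hepatocyte markers, Alb, Afp, Ttr and Fgb were not well above background on any array.

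In fetal liver the members were shifted downward on the array labelled Ezh2-null. Of 73 compared, 23 were at least 2-fold lower, against a background of 13.5% of all genes, and 5 were at least 2-fold higher, against 15.4% of all genes. Counted by sign alone, 58 lay below and 14 above the wild-type array. The median log2 difference of the members was −0.74 and that of all 16257 genes compared was −0.14, so the members' median lay 0.60 log2 lower than that of all genes. It stayed below that of all genes under every processing alternative, at 0.31 to 0.60 log2 lower. With the median of all genes subtracted, 17 members were at least 2-fold lower (background 10%) and 5 higher (background 17.5%).

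The shift was present under both subunit names. The subunit was taken from the name alone, which need not give the place of every product. The median log2 difference was −0.71 for the 44 members named Mrpl. Of these, 3 were at least 2-fold higher (background 15.4%) and 14 lower (background 13.5%). For the 29 members named Mrps it was −0.80, with 2 higher and 9 lower. Proteins with a bacterial counterpart form the core inherited from the bacterial ancestor of mitochondria, and the others were added later in eukaryotes. Members with a bacterial counterpart had a median of −0.78, with 2 of 43 higher and 16 lower. Those without one had a median of −0.66, with 3 of 28 higher and 7 lower, and the S18 paralogs Mrps18a and Mrps18b are described below. The spread between copies of 1 probe printed several times on an array gave a yardstick for technical error within an array, and 59 of 69 members measured on both arrays differed by more than double the combined spot SD (85.5%, against 70.3% of all genes).

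**Figure D1:**
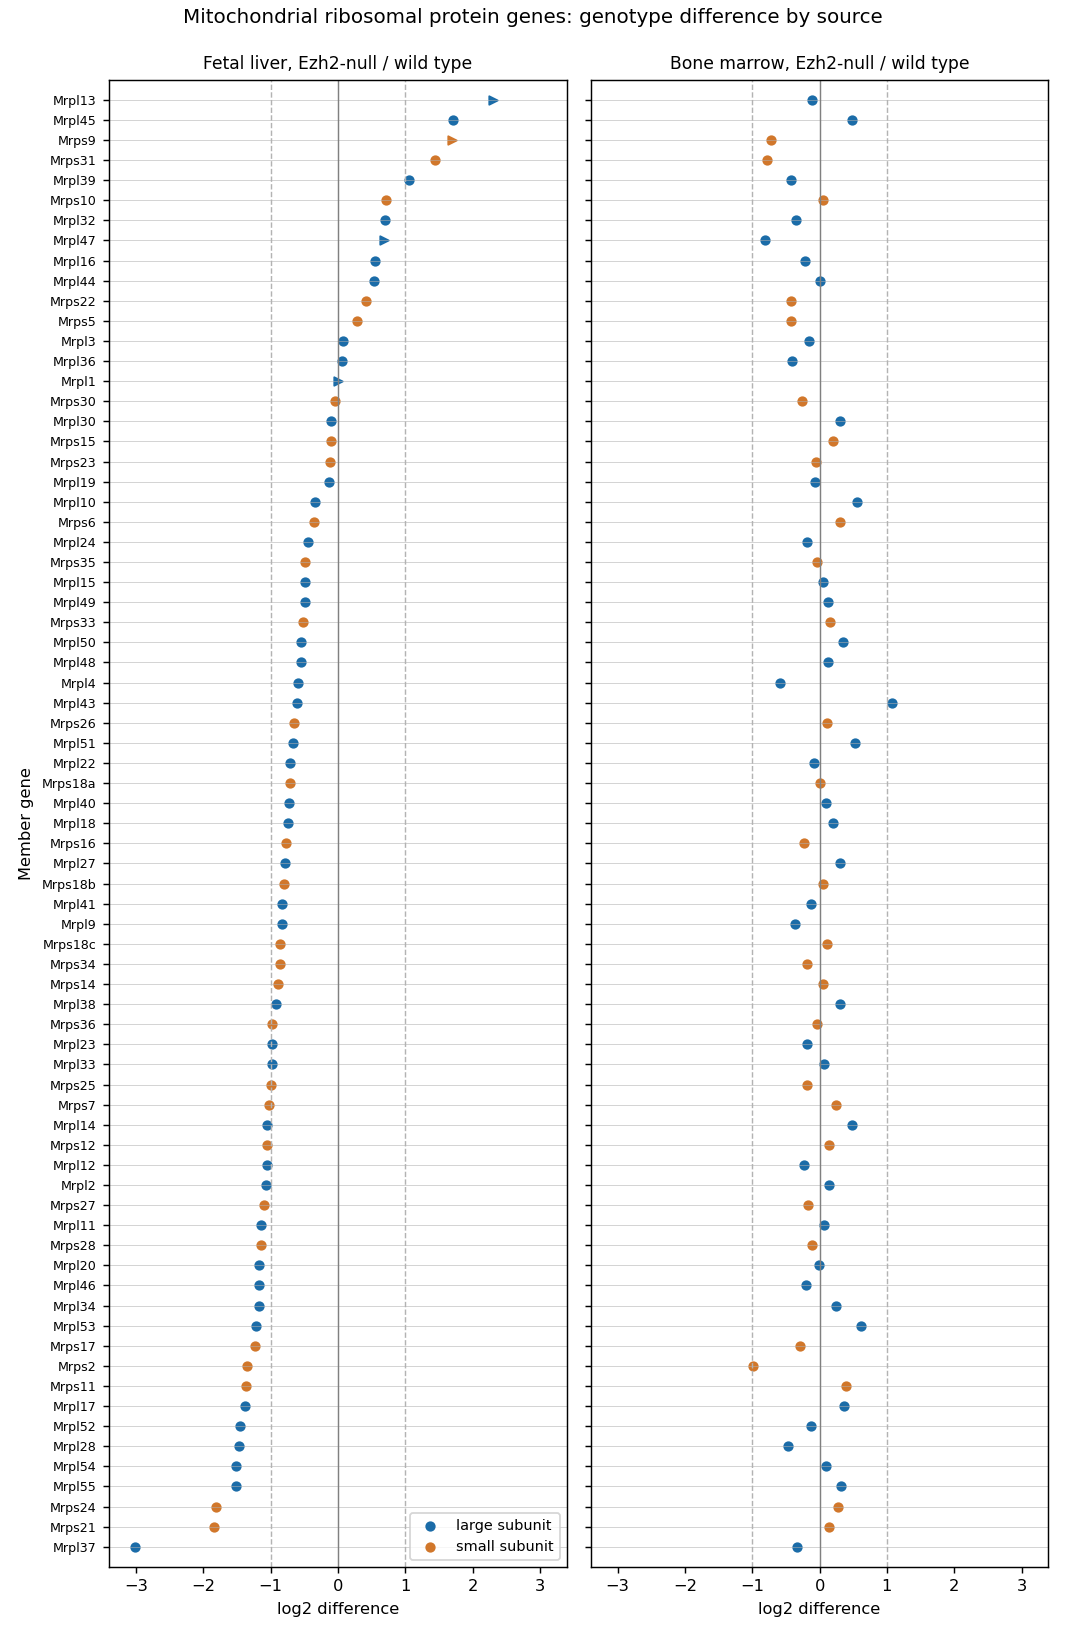
The log2 difference of Ezh2-null over wild type for each member gene in fetal liver (left) and bone marrow (right), with members ordered by the fetal liver value. Points are single differences between 2 arrays, triangles are lower bounds where wild-type fetal liver was not well above background, and dashed lines mark 2-fold. Most members lie left of 0 in fetal liver and around 0 in bone marrow.

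Mrpl37, a large-subunit protein with no bacterial counterpart, stood furthest from wild type. Its level was 69.5 on the Ezh2-null fetal liver array, against 559 in wild-type fetal liver, and 101 on the Ezh2-null bone marrow array, against 128 in wild-type bone marrow. The wild-type fetal liver array was thus the outlying one of the 4, at 8.05-fold the null array (log2 difference −3.01). The probe lies on chromosome 4 of build mm9, from 106733238 to 106734539, a span longer than the 60-base probe, and begins 851 bases into the transcript.

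Mrps21, the counterpart of a bacterial small-subunit protein, read 973 on the Ezh2-null fetal liver array, against 3467 in wild-type fetal liver, and 1301 on the Ezh2-null bone marrow array, against 1182 in wild-type bone marrow. Its fetal liver difference was −1.83 log2, and in bone marrow the arrays were 0.14 apart. Mrps24 is the counterpart of the bacterial protein that lines the mRNA entry channel. It read 218 on the Ezh2-null fetal liver array, against 768 in wild-type fetal liver, and 395 on the Ezh2-null bone marrow array, against 326 in wild-type bone marrow, a difference of −1.82 in fetal liver and 0.28 in bone marrow. In both genes the wild-type fetal liver array was the highest and the null fetal liver array the lowest.

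Mrpl55 and Mrpl54 belong to the large-subunit proteins specific to mitochondria. Mrpl55 read 2374 on the Ezh2-null fetal liver array, against 6775 in wild-type fetal liver, and 2962 on the Ezh2-null bone marrow array, against 2374 in wild-type bone marrow. Mrpl54 read 1421 on the Ezh2-null fetal liver array, against 4041 in wild-type fetal liver, and 1895 on the Ezh2-null bone marrow array, against 1765 in wild-type bone marrow. Both were 1.51 log2 lower on the null array in fetal liver, and for both the other 3 arrays lay close together. Mrpl52, also specific to mitochondria, had another pattern. Its level was 1473 on the Ezh2-null fetal liver array, against 4018 in wild-type fetal liver, and 3191 on the Ezh2-null bone marrow array, against 3477 in wild-type bone marrow, so that the null fetal liver array was the low one.

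Of the members with bacterial counterparts, Mrpl28 was −1.46 log2 apart in fetal liver (49.1 on the Ezh2-null array and 135 in wild type). Mrpl17, which sits near the exit of the nascent peptide tunnel, was −1.39 apart (607 and 1587). Mrps11, a protein of the small-subunit platform, was −1.36 apart (162 and 418). Mrps17 was −1.23 apart (179 and 420.03) and Mrpl20 −1.17 (2040.1 and 4594). Mrpl34 was printed as 10 spots per array with a spot SD of at most 0.08 log2, and read 1139.7 on the Ezh2-null fetal liver array and 2577 in wild-type fetal liver (−1.18). Among members without a bacterial counterpart, Mrpl53 (−1.22) and Mrpl46 (−1.17) were also below the 2-fold line. The remaining 9 of the 23 lay between −1.15 and −1.02 or, for Mrps2, at −1.35, and included the stalk proteins Mrpl11 (7797 and 17267) and Mrpl12 (2267 and 4710.4), Mrps12 of the decoding centre (−1.05) and Mrps7 (−1.02), which was the nearest inside the 2-fold limit. Mrps25 was the nearest outside it, at 1.997-fold lower.

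The 5 members higher on the Ezh2-null fetal liver array came from both subunits. Mrpl13, the counterpart of a bacterial large-subunit protein, read 104 on the Ezh2-null fetal liver array, against 21.1 and not well above background in wild-type fetal liver, which makes it at least 4.94-fold higher. In bone marrow it read 99.9 on the Ezh2-null array and 108 in wild type, so wild-type fetal liver was the only low array. Mrps9, the counterpart of a bacterial protein that reaches the decoding site, was at least 3.24-fold higher, at 70.2 on the Ezh2-null fetal liver array and 21.7, not well above background, in wild-type fetal liver. Its bone marrow levels were higher than both, at 155 on the Ezh2-null array and 255 in wild type.

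Mrpl45, which anchors the ribosome to the inner mitochondrial membrane, read 156 on the Ezh2-null fetal liver array, against 47.6 in wild-type fetal liver, and 261 on the Ezh2-null bone marrow array, against 187 in wild-type bone marrow (1.71 log2 in fetal liver and 0.48 in bone marrow). Mrps31, a small-subunit protein specific to mitochondria, read 331 on the Ezh2-null fetal liver array, against 122 in wild-type fetal liver, and 159 on the Ezh2-null bone marrow array, against 272 in wild-type bone marrow. It was thus higher on the null array in fetal liver (1.44 log2) and lower in bone marrow (−0.78). Mrpl39, a mitochondria-specific protein of the large subunit, read 308 on the Ezh2-null fetal liver array, against 148 in wild-type fetal liver (1.06 log2). Its bone marrow levels were 331 on the Ezh2-null array and 443 in wild type. Mrps10 was the nearest member outside the limit, at 0.72.

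**Figure D2:**
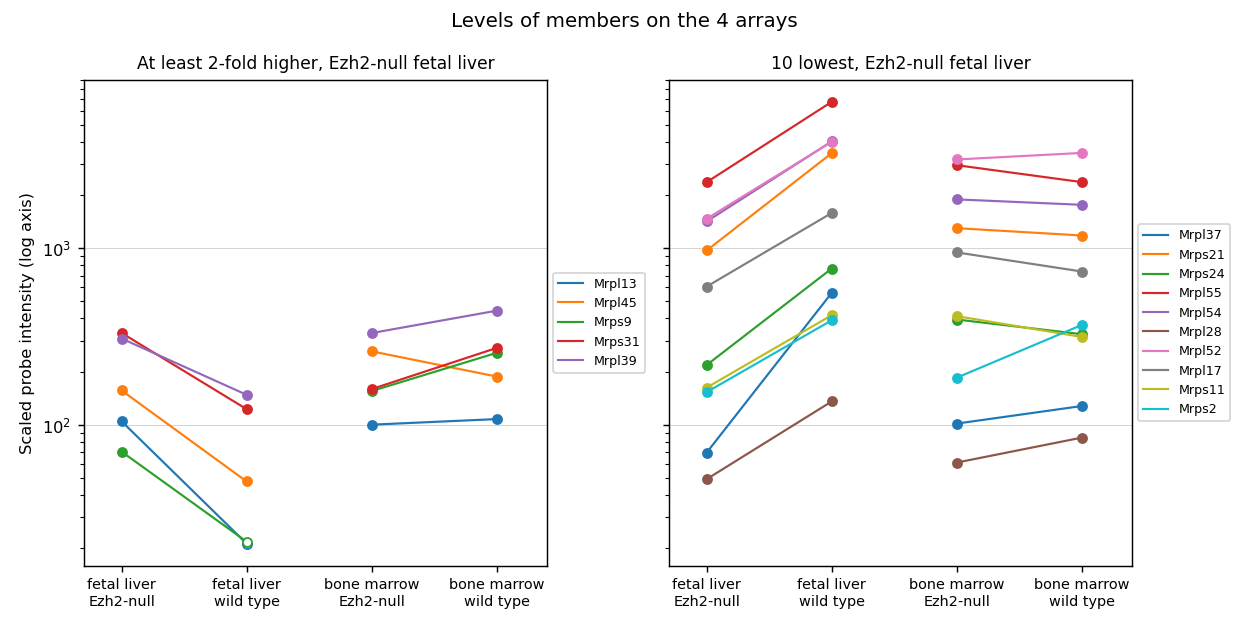
Scaled probe intensity on a log axis for the 5 members at least 2-fold higher on the Ezh2-null fetal liver array (left) and the 10 lowest there (right), on each of the 4 arrays. Open circles are signals not well above background, lines join the arrays of 1 source, and levels of different genes cannot be compared. The genes were picked by their fetal liver difference, so the common slope there is fixed by that choice. Mrpl37 reads 69.5 on the Ezh2-null and 559 on the wild-type fetal liver array, with both bone marrow arrays between them.

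The counts in fetal liver depended on the processing. With arrays scaled to spike-in RNA 5 members were lower (4.67% of all genes) and 10 higher (24.5% of all genes). With background corrected by the normexp model 14 were lower (6.53% of all genes) and 0 higher (4.89%). After removal of the probe position trend 12 were lower, or 16.4% of members, a share near the 13.9% of all genes, and 5 were higher (13.4% of all genes). Markers of some other cells differed between these arrays too. Of 5 granulocyte and macrophage markers compared, 0 were 2-fold apart. Of 4 megakaryocyte markers compared, 1 was at least 2-fold higher on the Ezh2-null array and 0 lower (background 15.4% and 13.5%). The higher one was Itgb3, at 289 against 43.8 in wild-type fetal liver. The summed level of 4 markers of maturing red cells, each detected on every array, was 8640 on the Ezh2-null fetal liver array and 42293 in wild-type fetal liver. Most of each sum was Hba-a1 (6575 and 32860), and the differences of the single markers ran from −2.32 to −0.88 log2. Of the 8 hepatocyte markers, 3 were detected on the Ezh2-null array, where these 3 summed to 136, and 4 in wild-type fetal liver, where these 4 summed to 640.4. The part of these cells in the members' difference was not tested, and in such bulk RNA fewer cells of a type and less RNA per cell cannot be told apart.

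In bone marrow the members differed little between the genotypes. Of 72 compared, 1 was higher by at least 2-fold in the RNA labelled Ezh2-null (background 4.54%) and 0 were lower (background 7.74%). With the median of all genes subtracted the same counts were 1 (background 4.84%) and 0 (background 7.30%). The median was 0.01, against −0.03 for all genes, and the middle 50% of members lay between −0.21 and 0.20. The member above the limit was Mrpl43, a mitochondria-specific large-subunit protein, at 1213 on the Ezh2-null array and 577 in wild type (1.07 log2), and its second probe gave 0.60. Mrps2 was the nearest below it, at 185 on the Ezh2-null array and 368 in wild type (−0.99, or 1.991-fold), and it passed 2-fold with spike-in scaling. Double the combined spot SD was exceeded by 29 of 72 members (40.3%, against 45.5% of all genes).

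The B-lymphoid markers differed between the bone marrow arrays. On the Ezh2-null array 6 of 7 were detected, and these 6 summed to 3846. In wild type 3 of 7 were detected, and these 3 summed to 170.4. Most of the Ezh2-null sum came from Vpreb1 (2202) and Dntt (1381), while Pax5 read 67.9 there and 77.6 in wild type. Markers of maturing red cells summed to 9980 on the Ezh2-null array and 3829 in wild type, with single differences from 0.84 to 3.15 log2. Of 5 megakaryocyte markers compared, 3 were at least 2-fold higher on the Ezh2-null array (Pf4, Itgb3 and Vwf, background 4.54%) and 0 lower (background 7.74%). Of 4 granulocyte and macrophage markers compared, 0 were 2-fold apart. The part of such cells in the members' values was not tested. The median of the members' absolute differences was 0.21 log2, against 0.24 for all genes.

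Set against each other, the genotype differences of the sources diverged. The fetal liver difference minus the bone marrow difference was below 0 for 57 of 72 members, with a median of −0.80 log2 against −0.18 for all genes. At 4-fold or more, 2 members were lower (Mrpl37 at −2.68 and Mrps24 at −2.09, background 3.30%) and 3 were higher (Mrps9 at 2.42 or more, Mrpl13 at 2.41 or more and Mrps31 at 2.21, background 8.70%). The values of Mrps9 and Mrpl13 are bounds, because neither was well above background in wild-type fetal liver. Across the 72 members the fetal liver and bone marrow differences, which share no array, had a Spearman correlation of −0.21, and across 6018 genes with probes at the same positions it was −0.16.

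Between the sources, scaling set the raw values: the median log2 difference of all genes between bone marrow and fetal liver ranged over the alternatives between −0.58 and 0.20 in Ezh2-null and between −0.73 and 0.66 in wild type. The members are therefore given relative to the median of all genes. In Ezh2-null progenitors 67 of 73 members lay above that median in bone marrow relative to fetal liver. Their median was 0.96 log2 above it (0.50 to 0.98 over the alternatives), 35 were at least 2-fold higher (background 19.9%) and 0 lower (background 14.3%). In wild-type progenitors 44 of 72 lay above it, with a median of 0.30 (0.06 to 0.45 over the alternatives), 17 at least 2-fold higher (background 22.3%) and 1 lower, Mrpl37 (background 8.72%). These comparisons share their arrays with the genotype comparisons and repeat part of the same values.

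**Figure D3:**
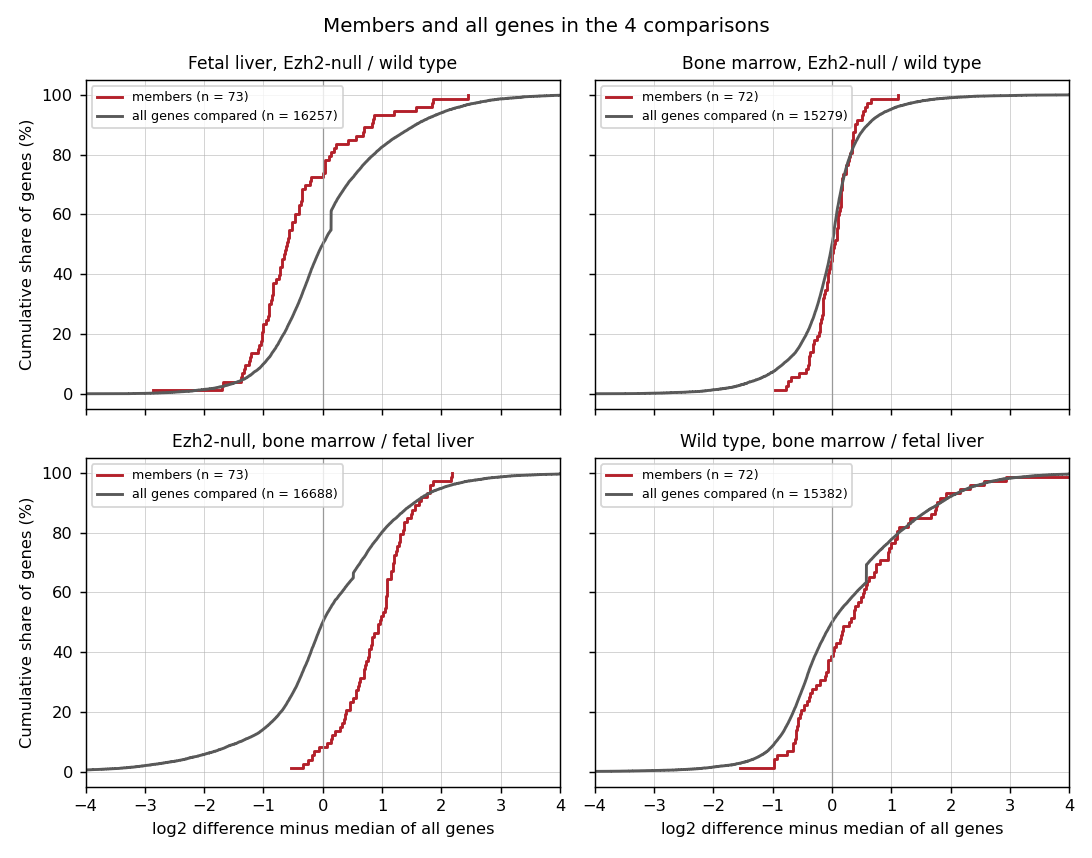
Cumulative share of members (red) and of all genes compared (grey) by log2 difference in the 4 comparisons, each minus the median of all genes. The vertical step in the grey curves holds genes whose bound was entered as no difference. The red curve lies left of the grey one in fetal liver by genotype, right of it for bone marrow over fetal liver in Ezh2-null, and close to it in bone marrow by genotype.

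Without that subtraction, the Ezh2-null comparison gave 9 members at least 2-fold higher in bone marrow (background 10.5%) and 1 lower (background 27.1%), and the wild-type comparison 11 higher (background 13.1%) and 17 lower (background 31.9%). In all, 4 of 72 members were higher in bone marrow in both genotypes (background 5.12% of 14402 genes), which is near the share of all genes. They were Mrps9, Mrps5, Mrpl9 and Mrpl19, all with bacterial counterparts. Mrps5, a small-subunit protein near the mRNA entry site, read 97.6 in Ezh2-null bone marrow, against 47.3 in Ezh2-null fetal liver, and 131 in wild-type bone marrow, against 39.0 in wild-type fetal liver. Mrpl9 read 269 in Ezh2-null bone marrow, against 85.1 in Ezh2-null fetal liver, and 346 in wild-type bone marrow, against 151 in wild-type fetal liver. Mrpl19 read 101 in Ezh2-null bone marrow, against 43.0 in Ezh2-null fetal liver, and 106.6 in wild-type bone marrow, against 47.3 in wild-type fetal liver. For all 4 members both bone marrow arrays read above both fetal liver arrays, which largely follows from the way they were picked.

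Others were apart in 1 genotype. In wild type, the members higher in bone marrow also included Mrpl13 (at least 5.09-fold), Mrpl45 (1.98 log2), Mrpl39 (1.58), Mrps22 (1.35), Mrpl32 (1.23), Mrps31 (1.15) and Mrpl3 (1.09), and Mrps9 was at least 11.8-fold higher. The lower ones were led by Mrpl37 (−2.13), Mrpl34 and Mrps21 (−1.55 each), Mrpl55 (−1.51), Mrpl20 (−1.34), Mrpl23 and Mrps24 (−1.24 each) and Mrps16 (−1.20), and with the median of all genes subtracted Mrpl37 alone stayed past 2-fold. Mrpl23 lines the peptide exit of the large subunit and Mrps16 is a small-subunit assembly protein in bacteria. The limit fell between Mrpl3 at 1.09 and Mrpl47 at 0.74 above 0, and between Mrpl51 at −1.01 and Mrpl12 at −0.97 below it. In Ezh2-null, Mrpl18, which binds 5S rRNA in bacteria, was 1.65 log2 higher in bone marrow (374 in Ezh2-null bone marrow and 119 in Ezh2-null fetal liver), Mrps11 1.35, Mrpl50 1.30, Mrps27 1.29 and Mrpl52 1.12. Here the limit fell between Mrps5 at 1.04 and Mrps17 at 0.98 above 0, and Mrps31 (−1.06) was the lower one, with Mrpl4 (−0.85) nearest outside. Mrps31 was thus higher in bone marrow in wild type and lower in Ezh2-null.

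Ranked over the arrays within each gene, 43 of the 69 members detected on all 4 were highest in wild-type fetal liver (62.3%, against 51.4% of 11177 genes) and 42 were lowest in Ezh2-null fetal liver (60.9%, against 24.3% of genes). The lowest place on the Ezh2-null fetal liver array held for 40 members under quantile scaling (34.9% of genes), 58 under all-probe scaling (40.9% of genes) and 46 under spike-in scaling (30.3% of genes). The highest place on the wild-type fetal liver array held for 4 members with spike-in scaling (5.80%, against 7.77% of genes). The median ratio of the highest to the lowest array was 2.21-fold for members and 2.43-fold for all genes. It was smallest for Mrpl24, at 1.36-fold (1987 and 2710 on the Ezh2-null and wild-type fetal liver arrays, 2095 and 2385 on the Ezh2-null and wild-type bone marrow arrays), and largest for Mrpl37 at 8.05-fold, both singled out after their values were seen.

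Small-subunit protein S18 has 3 paralogous genes in mammals, whose products occupy different places in the ribosome. All 3 read lower on the Ezh2-null fetal liver array than in wild-type fetal liver. Mrps18c, the closest to the bacterial form, read 3178 on the Ezh2-null fetal liver array, against 5755 in wild-type fetal liver (−0.86 log2), and its bone marrow arrays were 0.11 apart. Mrps18b read 5825 on the Ezh2-null fetal liver array, against 10147 in wild-type fetal liver (−0.80), and Mrps18a 458 against 754 (−0.72). In bone marrow Mrps18b was 0.04 and Mrps18a 0.01 apart by genotype, and none of the 3 passed 2-fold by genotype.

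The differences varied with where a probe sits in its transcript. The members' probes started between 312 and 1549 bases into the transcript, with a median of 657, and the start position correlated with the fetal liver difference at a Spearman rho of 0.40 over 72 members, against 0.13 over 6018 genes with probes at the same positions. These points share the same 2 arrays and their labelling. The 37 members with probes starting at or before base 657 had a median of −0.98, while genes at those positions had −0.39. Of these members 17 were at least 2-fold lower and 1 higher, against 19.95% and 7.27% of genes at those positions. The 36 with probes starting later had a median of −0.49, while genes there had −0.28. Transcript lengths were not used, so a start position does not tell which end of its transcript a probe lies near. Of these 6 were lower and 4 higher, against 14.9% and 10.3% of genes there, so that both counts lay near the background. In bone marrow rho was −0.22. In Ezh2-null over wild-type fetal liver the members stayed 0.36 log2 below all genes with this trend removed. The part of RNA quality or labelling in it was not tested.

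**Figure D4:**
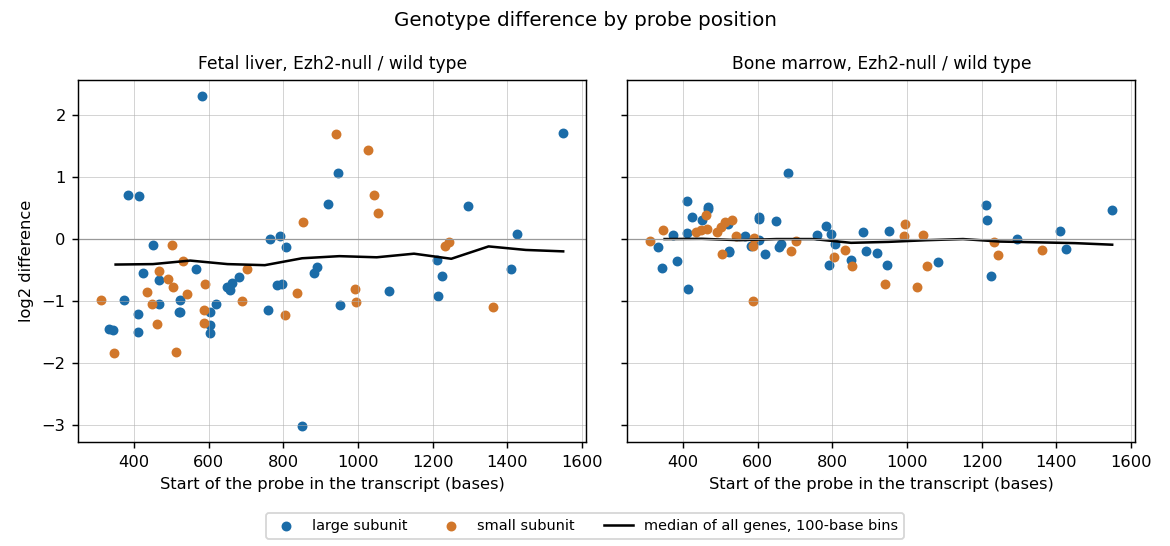
The log2 difference of Ezh2-null over wild type against the start of the probe in its transcript, in bases, in fetal liver (left) and bone marrow (right). Members are marked as large (Mrpl) or small (Mrps) subunit by name. The black line is the median of all genes in bins of 100 bases. In fetal liver most members with early probes lie below the line. Of the 5 members at least 2-fold higher, 4 have probes starting after base 657.

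Probes of 1 gene did not always go the same way. Of 20 members with 2 probes, 18 had both measured in fetal liver, and the probes had the same sign for 12. In bone marrow by genotype 10 of 19 had the same sign. Mrps2, the counterpart of a bacterial protein that joins the small subunit late, was the member whose probes were 2-fold apart in opposite directions in fetal liver. Its brighter probe (chromosome 2, 28325206 to 28325265, 587 bases into the transcript) read 153 on the Ezh2-null fetal liver array and 391 in wild-type fetal liver (−1.35). The other (28326283 to 28326342, 1664 bases in) read 170.2 on the Ezh2-null array and 69.0 in wild type (1.30). In bone marrow they differed little, at −0.99 and −0.89. The first 30 bases of each probe are shown because the sign of Mrps2 in fetal liver depends on which is read, and likewise for Mrpl10 and Mrpl50. Signs also differed for Mrpl47 (−0.50 and 0.69), Mrps36 (−0.98 and 0.52) and Mrps23 (−0.11 and 0.02).
Mrps2 probe at 587: gcctaccagacctcatcatctttctgcaca
Mrps2 probe at 1664: caaagaaggaaatccatacctgtttcccac
Mrpl10 probe at 1211: cttgtgccaagcactctacagacacagatg
Mrpl10 probe at 923: attcacaatgacctccttggggacaggcct
Mrpl50 probe at 423: aatgttcctgttcaagacaaatctaaattt
Mrpl50 probe at 1910: aaagttccactgtgttttactccataagta

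For Mrpl10, part of the stalk base, the probe at 1211 gave −0.34 in fetal liver (170 on the Ezh2-null array and 215 in wild type), and the probe at 923 gave 2.41 (316 and 59.4). For Mrpl50 the probe at 423 gave −0.54 in fetal liver and the probe at 1910, printed 10 times, gave 1.52 (94.2 on the Ezh2-null array and 32.7 in wild type). Between the sources in Ezh2-null the same Mrpl50 probes gave 1.30 and a bound of −3.26, the widest disagreement among the members.

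Some probes may read more than 1 gene. A probe filed for the processed copy Mrpl23-ps1 read 3511 on the Ezh2-null fetal liver array and 7302 in wild-type fetal liver, close to the 3624 and 7156 of the Mrpl23 probe, so parent and copy cannot be told apart here. Mrpl27-ps was −0.76 in fetal liver, beside −0.78 for Mrpl27. Mrps36, now assigned to the oxoglutarate dehydrogenase complex and not to the ribosome, was −0.98 by its brighter probe and 0.52 by the other.

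Promoters were available from RefSeq (build GRCm38.p6) for 64 of the 73 members, as 70 windows of 300 bases from 250 before to 50 after the start. Motifs of 3 factors known for nuclear genes of mitochondria were searched on both strands. CCGGAAG, the core bound by GABP and other ETS factors, was in 32.9% of member windows and 8.86% of all 32851 windows. The NRF1 core, whose letters are in capitals in the promoters below and which has 1 free position, was in 17.1% of member windows and 4.60% of all. ATGGCGG, the YY1 core, was also in 17.1% and in 4.05% of all. At least 1 of the 3 was in 54.3% of member windows and 15.5% of all, while the CCAAT box was in 41.4% and 37.4%, and TATAAA in 7.14% and 13.6%. All 32851 windows were counted whether or not their gene was detected on these arrays, while every member was detected on at least 1. The shares thus come from unlike sets, and a match is a description of the window only.

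In Ezh2-null over wild-type fetal liver, the median log2 difference was −0.77 for the 23 members with the ETS core and −0.72 for the 41 without it. It was −0.81 for the 12 with the YY1 core and −0.73 for the 52 without. For the 12 with the NRF1 core it was −0.37, with 4 lower and 3 higher, and for the 52 without it −0.77, with 17 lower and 1 higher. The background was 13.5% of all genes lower and 15.4% higher. With 12 members the counts are small, and a link between a motif and the direction was not tested. The 250 bases before the start are shown for 4 members with a match among those at least 2-fold apart in fetal liver, Mrps21 (chr3:95871515-95871764, minus strand) and Mrpl52 (chr14:54426659-54426908, plus strand) among the lower and Mrpl45 (chr11:97315466-97315715, plus strand) and Mrpl39 (chr16:84735245-84735494, minus strand) among the higher, with matches in capitals. Mrpl37, Mrps24 and Mrpl55 among the lowest and Mrps9 and Mrps31 among the higher had no match in these 250 bases.
Mrps21, NRF1 core on the other strand: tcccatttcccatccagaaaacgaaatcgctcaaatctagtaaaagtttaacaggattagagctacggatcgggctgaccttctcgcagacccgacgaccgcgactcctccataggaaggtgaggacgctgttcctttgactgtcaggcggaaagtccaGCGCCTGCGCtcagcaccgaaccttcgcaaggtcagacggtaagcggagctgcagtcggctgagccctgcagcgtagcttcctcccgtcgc
Mrpl52, ETS core on the other strand: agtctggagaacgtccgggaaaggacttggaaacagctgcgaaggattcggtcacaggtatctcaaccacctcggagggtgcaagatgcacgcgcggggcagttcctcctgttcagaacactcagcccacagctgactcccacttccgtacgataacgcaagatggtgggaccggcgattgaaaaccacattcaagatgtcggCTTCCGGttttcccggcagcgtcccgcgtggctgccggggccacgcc
Mrpl45, NRF1 core in 2 places: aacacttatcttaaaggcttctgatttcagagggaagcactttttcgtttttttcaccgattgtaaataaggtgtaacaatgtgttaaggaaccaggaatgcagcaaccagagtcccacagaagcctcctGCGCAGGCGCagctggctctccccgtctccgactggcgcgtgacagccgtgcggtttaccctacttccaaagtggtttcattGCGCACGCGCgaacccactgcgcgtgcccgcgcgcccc
Mrpl39, NRF1 core: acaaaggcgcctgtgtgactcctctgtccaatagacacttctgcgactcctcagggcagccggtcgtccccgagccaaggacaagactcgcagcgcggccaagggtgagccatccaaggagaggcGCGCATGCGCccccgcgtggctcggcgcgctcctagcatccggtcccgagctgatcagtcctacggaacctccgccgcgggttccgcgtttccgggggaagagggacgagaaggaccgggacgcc

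Other parts of the mitochondrial translation system were compared by gene lists. A list of 8 genes was drawn up as subunits of the ribosome filed under other names. Whether each gene on it, Lactb among them, is such a subunit was not checked. It had a fetal liver median of −0.84 log2, with 0 at least 2-fold higher and 2 lower. The background for the fetal liver counts of these lists was 15.4% of all genes higher and 13.5% lower. Mrpl42, also filed under an older name, is not on that list, and with it the median was −0.70, with 1 of 9 higher and 2 lower. Aurkaip1 of the small subunit was −1.14 (5172 on the Ezh2-null array and 11382 in wild type), Lactb was at least 1.58 log2 lower, and Dap3, a GTP-binding protein of the small subunit, was 0.77 (1485 and 872). Mrpl57 (−0.70) and Mrpl58 (−0.99) are filed in the array design under older names, so they are not among the members. Mrpl58 is a peptidyl-tRNA hydrolase built into the large subunit. Mrpl42 was 1.36 (1513 and 589). Assembly and rRNA-modification factors had a median of −0.17, with 1 of 19 higher and 4 lower. Rpusd4, a pseudouridine synthase, was −2.08 (16.7 on the Ezh2-null array and 70.7 in wild type), followed by Mterf4 (−1.34), Malsu1 (−1.32) and Mtg2 (−1.26), and the helicase gene Dhx30 was 1.27 (363 and 151).

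Translation factors had a fetal liver median of 0.42, with 2 of 12 at least 2-fold higher (background 15.4%) and 2 lower (background 13.5%). Both counts lay near the background, and the same backgrounds apply to the lists that follow. Mtif2, the initiation factor, read 8039 on the Ezh2-null array and 3984 in wild type (1.01), and the elongation factor gene Tsfm was at least 1.63 log2 lower, not well above background on the Ezh2-null array. Mtfmt, which formylates the initiator tRNA, was at least 1.38 higher and Gatc at least 1.36 lower. Mitochondrial tRNA synthetases had a median of −0.17, with 1 of 16 higher (Aars2, 1.11) and 2 lower (Sars2, −1.95, and Lars2, −1.76). Genes of mitochondrial transcription and RNA stability had a median of 0.29, with 2 of 11 higher and 1 lower. Tfb2m, a transcription initiation factor, read 201 on the Ezh2-null array and 61.1 in wild type (1.72), and Lrpprc, which stabilises mitochondrial mRNA, read 7426 and 2517 (1.56). Tfam, which packages and transcribes mitochondrial DNA, read 15.8 on the Ezh2-null array and 36.4 in wild type (−1.21).

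Regulators of mitochondrial biogenesis included factors whose motifs are given above. In fetal liver 4 of 8 were at least 2-fold higher (background 15.4%) and 0 lower (background 13.5%), with a median of 0.99. Gabpb1, a GABP subunit, read 219 on the Ezh2-null array and 37.8 in wild type (2.53), and its partner Gabpa was at least 1.47 log2 higher. Yy1 read 131 and 23.6 (2.48), and Myc 407 and 102 (4.01-fold higher). Nrf1 read 432 and 548 (−0.34). In bone marrow the same list had 1 of 7 higher (Pprc1, 1.30, background 4.54%) and 1 lower (background 7.74%). The lower one was Gabpa, at least 2.01 log2 lower. Of the transcription list Tfam (−1.46), Mterf1a (at least 1.36 lower) and Lrpprc (−1.19) were lower in bone marrow. Pnpt1, an RNA-degrading enzyme, was at least 2.55 higher. Lactb was at least 1.97 lower and the synthetase gene Iars2 was −1.09, while assembly and translation factors had 0 genes 2-fold apart there.

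**Figure D5:**
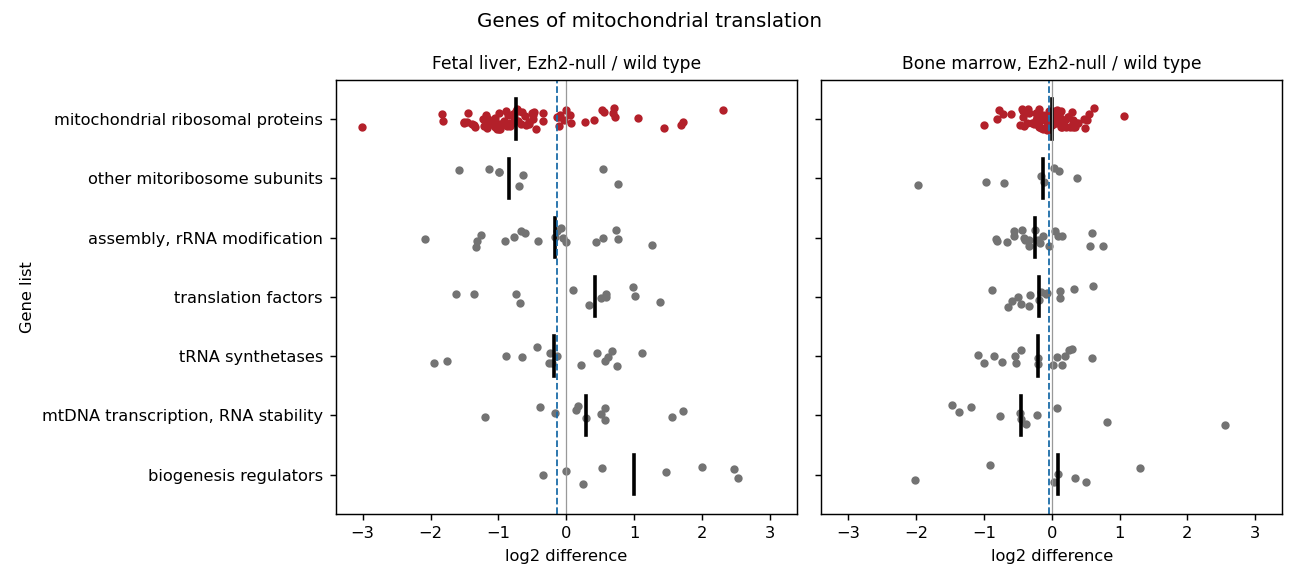
The log2 difference of Ezh2-null over wild type for members (red) and for genes of 6 other lists of mitochondrial translation (grey), in fetal liver (left) and bone marrow (right). Black ticks are list medians and the dashed blue line is the median of all genes. In fetal liver 53 of the 73 members lie left of the line and 20 right of it.

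Of larger sets in fetal liver, cytosolic ribosomal proteins had a median of −0.90, with 1 of 80 at least 2-fold higher and 32 lower. Oxidative phosphorylation subunits had −1.03, with 2 of 89 higher and 48 lower. The background was 15.4% of all genes higher and 13.5% lower. Between the sources in Ezh2-null, bone marrow over fetal liver, the medians relative to all genes were 0.69 for cytosolic ribosomal proteins, 0.92 for oxidative phosphorylation subunits, 0.96 for tRNA synthetases, 0.68 for assembly factors and 0.57 for translation factors, beside 0.96 for the members. The list of ribosome subunits under other names had 0.56 (0.27 with Mrpl42). Mitochondrial transcription and RNA stability genes had 0.72 and biogenesis regulators 0.10. In wild type the tRNA synthetases stood 1.24 above all genes and the members 0.30. Companion genes furthest apart between the sources in Ezh2-null, before that subtraction, were Lrpprc (−3.98), Gabpb1 (−2.82) and Gtpbp10 (−2.68) below and Rpusd4 (2.66) above fetal liver. By genotype in bone marrow the larger sets had medians of 0.00 and 0.02, beside 0.01 for the members. The fetal liver median of the members thus lay nearer to 0 than that of either set, and this difference between sets was not tested.

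A joint fit with genotype and source as additive terms over the 4 arrays, with 1 residual degree of freedom, called 0 members and 0 of 17668 genes (0.00%) for either term, by limma with Benjamini-Hochberg adjustment over all genes. On simulated genotype changes this fit recovered no changed gene at any size tried, so its count of 0 says nothing about whether members differed by genotype. Changes by source were not simulated. At an unadjusted p under 0.05, limma listed 2 members for genotype, both lower in Ezh2-null, against 2.40% of all genes. They were Mrpl4, at −0.60 ± 0.08 log2 (SE), and Mrps2, at −1.17 ± 0.16 log2 (SE). Both were lower in 2 of 2 sources by the brighter probe, and the limma adjusted p was 0.802 for both. The other probe of Mrpl4 gave −1.93 in fetal liver and 0.33 in bone marrow, and that of Mrps2 gave 1.30 in fetal liver. For source it listed 5 members, against 17.4% of all genes, and the smallest adjusted p of a member by limma was 0.278. Mrpl4, a large-subunit protein at the peptide tunnel, read 898 on the Ezh2-null fetal liver array, against 1361 in wild-type fetal liver, and 499 on the Ezh2-null bone marrow array, against 753 in wild-type bone marrow. When the fit was limited to genes well above background on all 4 arrays, calls were made for both terms, none of them a member.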

How the data were processed

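RNA of 4 samples, 1 per group, was hybridised to 1-colour Agilent arrays, with 250 ng of total RNA labelled with Cy3 per the labels' protocols. Groups come from the sample titles. The deposited intensity values are Feature Extraction 10.7.3.1 output, background-subtracted and detrended within each array per the file headers. Deposited flags of 0 or 1 gave signal well above background and outliers, per the file headers. The authors' series table repeats the processed intensity values rounded to 3 significant digits. The isolation of the cells is not given in the sources used here.

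Outlier-flagged spots and control spots were left out, spots of 1 probe were averaged, and log2 intensities were scaled to a common 75th percentile across the 12880 probes detected on every array. The brightest probe stood for a gene. For genes detected on only 1 of the arrays compared, a bound was computed against the higher of the array's floor (9.79 to 19.3) and its own signal, with bounds below 0 entered as no difference. Differences of at least 2-fold were counted. The number of arrays limits the precision, and the median log2 SD between spots of 1 probe was 0.08 to 0.14. The additive fit used limma 3.58.1 (R 4.3.3), two-sided, with signals under the highest floor raised to it. Tested on simulated genotype changes, it recovered no changed gene at any size tried. Gene names were updated through RefSeq tables of GRCm38.p6, with 26048 probes matched by accession, and coordinates were left as deposited (build mm9).

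Named were members at least 2-fold apart, up to 15 per direction and comparison, those nearest the limit, those with opposed probes, the S18 paralogs and leading genes of the companion lists. The members and lists were chosen with earlier results of these data known, and 1 marker gene is not reported here. The alternatives covered background correction, scaling, choice of probe, detection, floor, source of values and probe position, and 1 more, the subtraction of the median of all genes, was chosen after seeing the data.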

Additional observations from a re-analysis of the deposited data

Results flagged for a closer look

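Mrps31 went opposite ways between the sources in the 2 genotypes. It was lower in bone marrow than in fetal liver in Ezh2-null progenitors (−1.06 log2, levels 159 and 331) and higher in bone marrow in wild-type progenitors (1.15 log2, levels 272 and 122). With 1 array per group this difference between genotypes was not tested.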

How the results depend on the processing

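No paired analysis was possible because each group has 1 array, and for the same reason no array could be left out in turn. The cause of each shift was not tested. For Ezh2-null against wild type in fetal liver, 23 lower members became 14 (normexp), 15 (quantile), 5 (spike-in) and 12 (probe position trend removed), and 5 higher became 0 (normexp), 10 (spike-in) and 3 (detection on all 4 arrays). The median relative to all genes became −0.31 (normexp), −0.38 (quantile) and −0.36 (probe position). In bone marrow, 0 lower became 1 with spike-in scaling, averaged probes and 3′ probes, and 1 higher became 0 with averaged probes. Of all genes, 8.47%, 7.23% and 8.07% were lower in these 3 settings, and 4.09% were higher with averaged probes. For bone marrow against fetal liver in Ezh2-null, 9 higher became 39 (75th percentile over all probes), 4 (normexp), 5 (probe position), 44 (spike-in) and 35 (relative to the median of all genes). In the same order, the share of all genes higher went from 10.5% to 22.7%, 4.26%, 9.12%, 25.5% and 19.9%. The 1 lower became 0 (all probes, normexp, quantile, spike-in, relative to the median), 3 (averaged probes) and 2 (3′ probe, probe position), and the median 0.78 (averaged probes) and 0.50 (quantile). Of all genes 27.1% were lower at first, and between 11.7% (spike-in) and 31.2% (probe position) in these settings. In wild type, 11 higher became 4 (normexp), 36 (spike-in) and 17 (relative to the median), 17 lower became 4 (all probes), 11 (normexp), 10 (quantile), 0 (spike-in) and 1 (relative to the median), and the median 0.065 (quantile). In the same order, the share of all genes higher went from 13.1% to 4.64%, 38.3% and 22.3%. That of all genes lower went from 31.9% to 15.1%, 33.95%, 16.1%, 2.31% and 8.72%, so much of each change was shared by all genes. Signs reversed for Mrps2 in fetal liver by genotype (3′ probe, 1.30), for Mrpl50 between the sources in Ezh2-null (averaged probes −1.33, 3′ probe −3.26), and with spike-in scaling between the sources in wild type for Mrpl14 (0.084), Mrpl17 (0.17), Mrpl23 (0.033), Mrpl43 (0.15), Mrpl51 (0.27), Mrpl53 (0.10), Mrpl54 (0.080), Mrps12 (0.13), Mrps16 (0.078), Mrps18b (0.12), Mrps24 (0.038) and Mrps34 (0.22). Of the 28 members called in fetal liver, 28 passed 2-fold the same way with the series table, 27 with the percentile over all probes, 18 with quantile, 17 with the probe position trend removed, 14 with normexp and 10 with spike-in scaling. Where signal lay near the floor, as for Mrpl1, a difference was not measurable.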
